A study of Mus musculus with 4 samples.

Results

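The 8 genes described here, Lyve1, Folr2, Mrc1, Cd163, Pf4, Cbr2, F13a1 and Timd4, are used in the mouse to recognise resident macrophages that sit along vessels and in connective tissue. They are 8 of the 32285 genes in the count table. They were chosen by name, for what they are known for in tissues, and with earlier results of these data known. Each was followed over the cells that the study kept, 28429 of 53361 cell barcodes (53.3%), as unique molecular identifiers (UMIs, counted mRNA molecules) per 10000 UMIs and as the share of cells with at least 1 UMI. The cells came from mammary tumors grown from EO771, a mouse mammary cancer line implanted in the mammary gland of female mice on a C57BL/6 background, harvested at 1.5 cm3 and sorted for viable CD45+ leukocytes. The mice were Csf1r fl/fl, with both alleles of the CSF-1 receptor gene floxed (2 tumors), or Lyve1Cre Csf1r fl/fl, which carried the same floxed alleles and in addition a Cre recombinase driven from Lyve1 (2 tumors). Because Lyve1 is also a gene of lymphatic endothelium, that Cre is not limited to macrophages, and the floxed alleles were present in the controls as well. Hashtag antibodies distinguished the tumors within each of 2 Chromium runs, and every run held cells from both genotypes (1 tumor each), so the run number pairs the tumors. The ages of these mice were not given in the sources used here. Kept cells of the 2 runs shared 60 barcode sequences.

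Tissue-resident macrophages next to blood vessels and hyaluronan-rich stroma take up debris, matrix fragments, iron-carrying proteins and folate through a set of scavenger and endocytic receptors, and they depend on signalling through the CSF-1 receptor. The 8 genes encode receptors for matrix and glycoproteins (Lyve1 for hyaluronan, Mrc1 for mannosylated glycoproteins and collagen), receptors for small cargo or dying cells (Folr2 for folate, Cd163 for haptoglobin-haemoglobin, Timd4 for phosphatidylserine), secreted proteins (the chemokine Pf4 and the coagulation factor XIII A chain F13a1) and an enzyme (the carbonyl reductase Cbr2). In the tumors the set did not behave as markers of 1 cell type. By the mean of the Csf1r fl/fl tumors, Folr2, Pf4 and Cbr2 were highest in macrophages with complement C1q transcripts, although macrophages with Arg1 transcripts were above these for Pf4 in 3 of 4 tumors and for Folr2 in 2 of 4. Mrc1 was shared between both kinds of macrophage, F13a1 was a gene of Ly6c2 monocytes and Arg1 macrophages, Cd163 was highest in plasmacytoid dendritic cells, Timd4 in mature dendritic cells, and Lyve1 in the few tumor and stromal cells that passed the CD45 sort. The name of the group is therefore used below only for the list and not for any cell population.

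Promoter sequence is shown for Pf4, Mrc1 and Folr2, which were read in the same C1q and Arg1 macrophages, and for F13a1, which was read in the monocytes as well. In GRCm38 coordinates the genes lie at chr5:90772435-90773383 on the plus strand (Pf4), chr2:14229392-14332057 on the plus strand (Mrc1), chr7:101839988-101857194 on the minus strand (Folr2) and chr13:36867178-37050244 on the minus strand (F13a1). RefSeq held promoter windows on GRCm38.p6 for 7 of the 8 genes, and none for Lyve1. The 250 bases before each start were searched on both strands for 2 short words that do not overlap each other, the core of the PU.1 motif (GAGGAA, or TTCCTC on the other strand) and the MAF half-site (TGCTGA, or TCAGCA). Capitals mark the matches. Each run is written 5′ to 3′ on the strand of the gene, upstream of its RefSeq start, and stops where the annotated gene begins. For Mrc1 and Folr2 the RefSeq start lies inside the annotated gene, so their runs are 228 and 246 bases long. Distances counted to the RefSeq start are therefore longer than these 2 runs show.
Pf4, chr5:90772185-90772434: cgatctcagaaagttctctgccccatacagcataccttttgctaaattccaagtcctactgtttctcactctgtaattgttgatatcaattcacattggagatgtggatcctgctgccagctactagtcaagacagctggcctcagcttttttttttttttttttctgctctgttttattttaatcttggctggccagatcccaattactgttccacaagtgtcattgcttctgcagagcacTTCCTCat
Mrc1, chr2:14229164-14229391: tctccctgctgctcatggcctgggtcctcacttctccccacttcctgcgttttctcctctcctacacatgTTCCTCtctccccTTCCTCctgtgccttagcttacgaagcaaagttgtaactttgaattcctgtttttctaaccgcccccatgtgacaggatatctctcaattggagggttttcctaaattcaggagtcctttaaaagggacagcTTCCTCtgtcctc
Folr2, chr7:101857195-101857440: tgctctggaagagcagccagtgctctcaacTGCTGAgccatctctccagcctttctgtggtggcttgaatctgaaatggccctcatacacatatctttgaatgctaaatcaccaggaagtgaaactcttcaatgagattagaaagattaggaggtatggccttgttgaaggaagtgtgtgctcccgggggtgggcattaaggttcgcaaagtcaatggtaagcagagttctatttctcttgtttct
F13a1, chr13:37050245-37050494: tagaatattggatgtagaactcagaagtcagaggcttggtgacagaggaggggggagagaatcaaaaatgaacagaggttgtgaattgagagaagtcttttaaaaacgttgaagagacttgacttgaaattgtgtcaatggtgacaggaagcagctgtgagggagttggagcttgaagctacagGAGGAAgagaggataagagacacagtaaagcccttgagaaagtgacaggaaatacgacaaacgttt

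The Pf4 promoter held 1 PU.1 core, 8 bases before the RefSeq start, to which all distances here are counted. The Mrc1 promoter held 3, at 180, 167 and 35 bases before the start. In F13a1 there was 1 such core, 66 bases before the start, and in Cbr2 1 at 79 bases, which lies inside the annotated gene. Folr2 held no PU.1 core and 1 MAF half-site, 220 bases before its first start. The window of its second start held 1, 19 bases before that start and inside the annotated gene. Timd4 held 2 MAF half-sites, at 150 and 44 bases. Cd163 held neither word. Words this short are common: 23.3% of all 32851 promoter windows of this length held the PU.1 core and 16.1% held the MAF half-site. A match is a description of the letters and not of binding.

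Among the remaining genes, Lyve1 lies at chr7:110850607-110863239 on the minus strand, Cd163 at chr6:124304656-124330527 on the plus strand, Cbr2 at chr11:120729489-120732114 on the minus strand and Timd4 at chr11:46810800-46844332 on the plus strand. Folr2 and F13a1 overlap annotated genes on the opposite strand (Gm10602 and Gm45319, and Gm49144 and Gm30489), and Mrc1 contains the microRNA gene Mir511.

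Cell types were set by sums of lineage marker transcripts in each cell, without any of the 8 genes. Of the kept cells, 5983 were monocytes or macrophages: 3454 Ly6c2 monocytes, 1223 C1q macrophages, 331 Arg1 macrophages and 975 that passed none of these 3 gates. A further 4953 cells (17.4%) held markers of more than 1 lineage and were called mixed. Scrublet, a doublet caller, marked 63.8% of the mixed cells and 14.2% of the C1q macrophages. The 4 tumors gave between 4771 and 8699 kept cells and between 27686362 and 56715743 UMIs. Csf1r itself was read at 2.23 and 2.40 UMIs per 10000 in the monocytes and macrophages of the Csf1r fl/fl tumors of run 1 and run 2, and at 1.56 and 1.52 in those of the Lyve1Cre Csf1r fl/fl tumors. Csf1r was 1 of the genes of the macrophage gate, and 3′ tags need not cover the floxed segment, so these values do not check the deletion.

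C1q macrophages made up 6.43% of the kept cells of the run 1 Csf1r fl/fl tumor (559 cells, 95% exact binomial interval 5.92 to 6.96%) and 4.91% of that of run 2 (382 cells, 4.44 to 5.41%). In the Lyve1Cre Csf1r fl/fl tumors they made up 2.47% (177 cells, 2.12 to 2.85%) and 2.20% (105 cells, 1.80 to 2.66%). The groups did not overlap, with means of 5.67% ± 1.07 and 2.33% ± 0.19 (SD, n = 2 each). The difference was 3.33 percentage points, with p = 0.3333 from an exact two-sided permutation test. That is the smallest p this test allows for 2 tumors against 2, so it cannot decide whether the groups differ. As a share of monocytes and macrophages the values were 26.3% and 20.1% against 15.7% and 12.5%. Intervals here and below cover counting error only. The C1q macrophages of both Lyve1Cre Csf1r fl/fl tumors had a lower median depth than those of both Csf1r fl/fl tumors. The share of cells with a UMI depends on depth. The medians were 5327, 5761, 4255 and 5275 UMIs per cell in the order Csf1r fl/fl run 1, Csf1r fl/fl run 2, Lyve1Cre Csf1r fl/fl run 1 and Lyve1Cre Csf1r fl/fl run 2. Values of the 4 tumors are given in that order throughout.

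**Figure D1:**
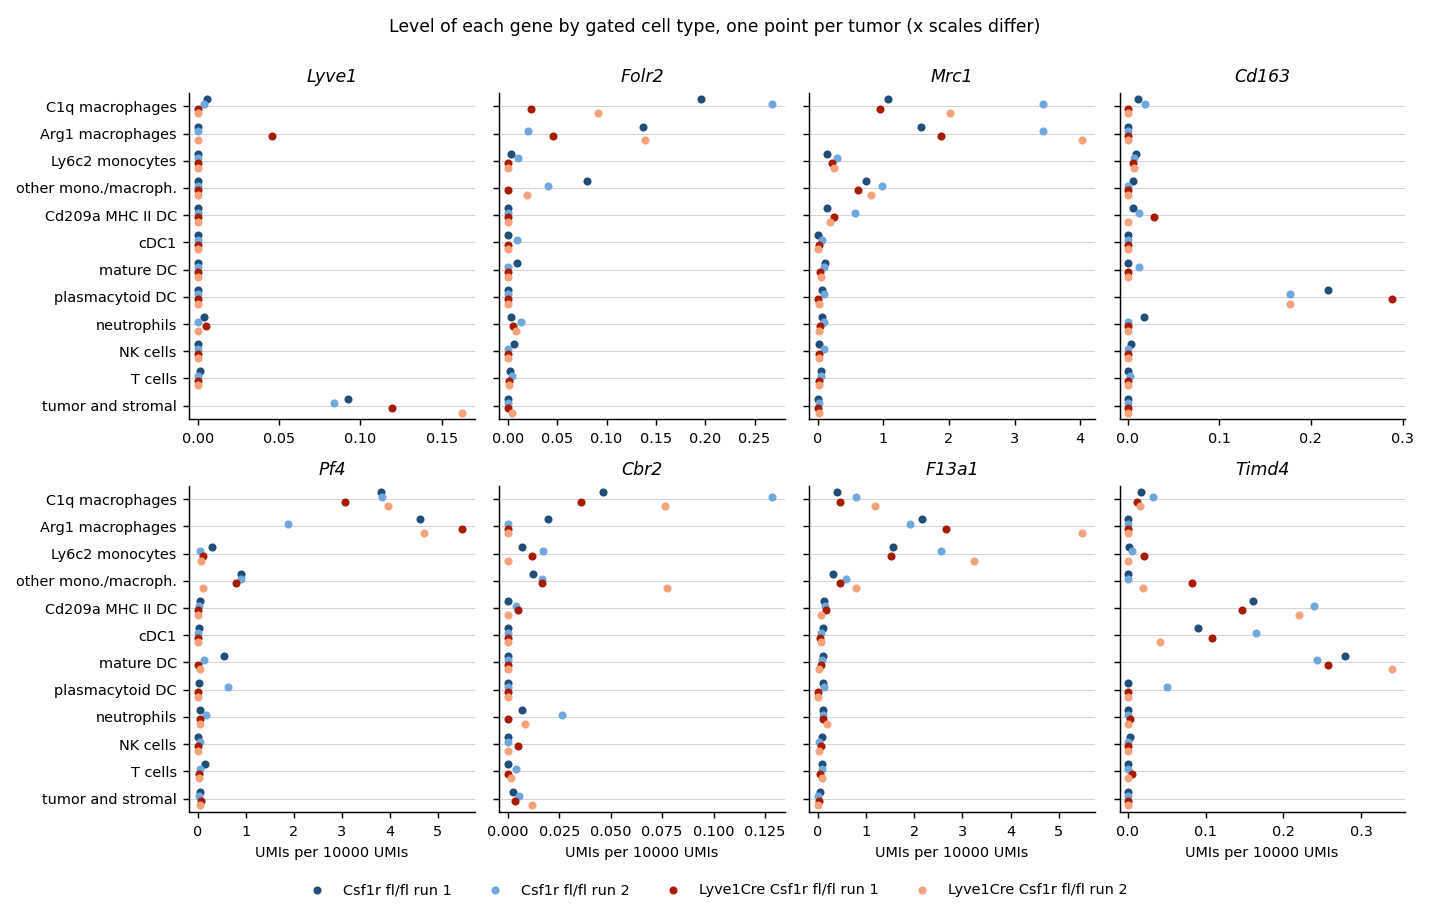
Level of each of the 8 genes (UMIs per 10000 UMIs) by cell type, with 1 point per tumor, blue for Csf1r fl/fl and red for Lyve1Cre Csf1r fl/fl, the lighter shade for run 2. Folr2, Pf4 and Cbr2 were highest in C1q macrophages by the Csf1r fl/fl mean, while Lyve1, Cd163 and Timd4 were highest outside the macrophages in 4 of 4 tumors.

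Folr2, the folate receptor beta, had its highest Csf1r fl/fl mean in C1q macrophages. It was read at 0.196, 0.267, 0.0239 and 0.0919 UMIs per 10000 in C1q macrophages of the 4 tumors, from 72, 73, 2 and 6 UMIs. Both Csf1r fl/fl tumors lay above both Lyve1Cre Csf1r fl/fl tumors, as for 16.2% of the 8733 genes tested in these cells, and the 95% Poisson interval of the run 1 Lyve1Cre Csf1r fl/fl tumor (0.00289 to 0.0862) did not reach those of the Csf1r fl/fl tumors (0.153 to 0.246 and 0.209 to 0.336), while that of run 2 (0.0337 to 0.19999) overlapped the first of these. The share of C1q macrophages with a Folr2 UMI was 7.69, 9.95, 1.13 and 4.76%, against 0.110% of all T cells, which served as cells that should lack these genes. Thinned to 2000 UMIs per cell, the shares were 3.94, 2.79, 0.65 and 2.04% of 507, 359, 153 and 98 cells. The order of the genotypes was the same and the difference smaller. The Lyve1Cre Csf1r fl/fl shares rested on too few cells with a UMI to bear out that order. Arg1 macrophages followed by the Csf1r fl/fl mean, at 0.137, 0.0205, 0.0458 and 0.139 UMIs per 10000 from 11 UMIs in all, and overlapped the C1q macrophages across the 4 tumors. No Folr2 UMI was counted in Cd209a MHC class II dendritic cells or plasmacytoid dendritic cells. Of the 374 Folr2 UMIs in kept cells, 40.9% were in C1q macrophages and 40.4% in mixed cells, which held 24.3% of all UMIs.

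Mrc1, the mannose receptor CD206, had a broader range. In C1q macrophages it was read at 1.06, 3.43, 0.943 and 2.02 UMIs per 10000, from 391, 938, 79 and 132 UMIs. Both tumors of run 2 were above both tumors of run 1, and the genotypes overlapped. Arg1 macrophages gave 1.57, 3.43, 1.88 and 4.02 UMIs per 10000 and overlapped the C1q macrophages, with Csf1r fl/fl means of 2.50 ± 1.31 and 2.25 ± 1.68 (SD, n = 2). The other monocytes and macrophages followed at 0.734, 0.976, 0.611 and 0.810, the Cd209a MHC class II dendritic cells at 0.144, 0.566, 0.252 and 0.188 and the Ly6c2 monocytes at 0.144, 0.286, 0.216 and 0.252. The last 2 types overlapped each other. A UMI of Mrc1 was found in 28.8, 44.5, 22.0 and 34.3% of C1q macrophages (15.8, 26.5, 15.7 and 20.4% after thinning), and in 1.02% of T cells.

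Pf4, a chemokine best known from platelet granules and also made by macrophages, was read in C1q macrophages at 3.81, 3.85, 3.08 and 3.97 UMIs per 10000. These levels were nearly the same in the 4 tumors, but they rested on few cells. The 3 cells with most Pf4 held 19.7 and 22.6% of its UMIs in C1q macrophages of Csf1r fl/fl tumors, and 62.0 and 78.8% in those of Lyve1Cre Csf1r fl/fl tumors. These were 3 of 137, 99, 28 and 14 cells with a UMI, and such a share rises where fewer cells hold one. The highest cell of each tumor held 120, 116, 69 and 107 UMIs. The share of C1q macrophages with a UMI was 24.5, 25.9, 15.8 and 13.3% (16.8, 16.4, 12.4 and 10.2% after thinning), against 1.43% of T cells. It was higher in both Csf1r fl/fl tumors than in either Lyve1Cre Csf1r fl/fl tumor, as were the shares of 35.3% of the 8733 genes tested in these cells. In Arg1 macrophages Pf4 was at 4.64, 1.89, 5.50 and 4.71 UMIs per 10000 and overlapped the C1q macrophages. After thinning, the Csf1r fl/fl mean was higher in Arg1 macrophages (3.95) than in C1q macrophages (3.92). The platelet genes Gp1bb and Treml1 had no UMI in C1q macrophages, and a list of 6 platelet and megakaryocyte genes summed to 0.147, 0.370, 0 and 0.521 UMIs per 10000, nearly all of it Ppbp. Their part in the Pf4 values was not tested.

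Cbr2, a carbonyl reductase of lung and resident macrophages, was detected in few cells. In C1q macrophages 17, 35, 3 and 5 UMIs gave 0.0462, 0.128, 0.0358 and 0.0766 UMIs per 10000, and the groups overlapped. The 95% Poisson intervals of the Lyve1Cre Csf1r fl/fl tumors, 0.00738 to 0.105 and 0.0249 to 0.179, covered those of the Csf1r fl/fl tumors in large part (0.0269 to 0.0740 and 0.0892 to 0.178). A UMI was found in 1.97, 4.71, 1.69 and 1.90% of C1q macrophages and in 0.0628% of T cells. Neutrophils came next by the Csf1r fl/fl mean, at 0.0168 ± 0.0137 UMIs per 10000 against 0.0872 ± 0.0579 in C1q macrophages (SD, n = 2).

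F13a1, the A chain of coagulation factor XIII, was a gene of both monocytes and Arg1 macrophages in these tumors, with Arg1 macrophages the highest type in 3 of 4 tumors. Ly6c2 monocytes were at 1.56, 2.55, 1.53 and 3.24 UMIs per 10000, from 902, 1489, 523 and 1002 UMIs, and 33.6, 39.9, 31.0 and 43.5% of them held a UMI. Arg1 macrophages were at 2.16, 1.91, 2.66 and 5.47. In both types the run 2 Lyve1Cre Csf1r fl/fl tumor was the highest of the 4, and the types overlapped, with Csf1r fl/fl means of 2.05 ± 0.70 and 2.03 ± 0.17 (SD, n = 2). C1q macrophages were lower in every tumor, at 0.394, 0.791, 0.465 and 1.19 UMIs per 10000. The share of T cells with a UMI was 1.70%. After thinning, and also without the cells marked by Scrublet, Arg1 macrophages had the higher Csf1r fl/fl mean.

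Cd163, the haemoglobin scavenger receptor, was nearly absent from macrophages. C1q macrophages held 4, 5, 0 and 0 UMIs, those of each Csf1r fl/fl tumor in a single cell. Its highest level was in plasmacytoid dendritic cells, the interferon-producing dendritic cells, at 0.218, 0.177, 0.288 and 0.178 UMIs per 10000, from 24, 7, 7 and 7 UMIs. These cells held a UMI in 5.69, 7.14, 9.26 and 8.11% of cases, against 0.0314% of T cells, and the genotypes overlapped. Arg1 macrophages, conventional type 1 dendritic cells and tumor and stromal cells had no Cd163 UMI. All kept cells together held 123 Cd163 UMIs, and it failed the filter on low counts in each cell type that was compared between genotypes, described further on.

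Timd4, a receptor by which resident macrophages of serous cavities and other tissues take up apoptotic cells, had its highest levels in dendritic cells. Mature dendritic cells, those that carry Ccr7 and migrate to lymph nodes, were at 0.279, 0.243, 0.258 and 0.339 UMIs per 10000. Cd209a MHC class II dendritic cells were at 0.161, 0.240, 0.147 and 0.220 and conventional type 1 dendritic cells at 0.0899, 0.164, 0.109 and 0.0419. The first 2 did not overlap across the 4 tumors by the margin between 0.240 and 0.243, and the Cd209a MHC class II and type 1 cells overlapped. C1q macrophages held 6, 9, 1 and 1 UMIs, in 7 of the 1223 cells (0.572%). The share of mature dendritic cells with a UMI was 6.95, 7.92, 5.85 and 6.53%, against 0.0471% of T cells.

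Lyve1, the hyaluronan receptor from which the Cre of this model takes its promoter, was read from 147 UMIs in all kept cells. Of these, 130 (88.4%) were in the 236 tumor and stromal cells, at 0.0926, 0.0834, 0.119 and 0.162 UMIs per 10000. The 95% Poisson intervals of the genotypes overlapped there (0.0659 to 0.127 and 0.0477 to 0.136 against 0.0825 to 0.167 and 0.116 to 0.220). Those cells were large libraries, with a median of 44628, 44595, 50284 and 53087 UMIs, and Scrublet marked 42.4% of them. Fibroblast and epithelial markers set the gate for these cells, so their sums do not identify the cells that held Lyve1. Fibroblast markers summed to between 9.28 and 13.7 UMIs per 10000 and epithelial markers to between 1.37 and 2.63. No endothelial gene was part of the gate. Blood endothelial genes summed to between 0.673 and 1.20 here, against 1.04 to 1.59 in the C1q macrophages. Of 6 lymphatic endothelial genes, 4 (Prox1, Mmrn1, Reln and Ccl21a) had no UMI in the tumor and stromal cells and the 6 summed to at most 0.0626.

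In the macrophages Lyve1 was close to absent. C1q macrophages held 2, 1, 0 and 0 UMIs in 4 tumors, and a count of 0 allows up to 0.0358 UMIs per 10000 and 1.69% of cells with a UMI in the run 1 Lyve1Cre Csf1r fl/fl tumor, and up to 0.0459 and 2.86% in that of run 2. The Csf1r fl/fl tumors were at 0.0054 and 0.0037 UMIs per 10000, below those limits, so a loss of Lyve1 transcripts could not have been seen at this depth. Ly6c2 monocytes held no Lyve1 UMI in any of 3454 cells, and Arg1 macrophages held 1, in the run 1 Lyve1Cre Csf1r fl/fl tumor.

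Cells that held more than 1 of the 8 transcripts were counted in C1q macrophages. Of the 1223 cells, 624 held none of the 8 genes, 352 held 1, 142 held 2, 73 held 3, 22 held 4, 8 held 5, 1 held 6 and 1 held 7. Cells with 3 or more made up 6.62, 14.1, 3.39 and 7.62% of the C1q macrophages, and run 2 was above run 1 within each genotype. Folr2, Mrc1 and Pf4 were found together. Of the 88 cells with Folr2, 76.1% held Mrc1, against 29.9% of cells without Folr2, and 69.3% held Pf4, against 19.1%. After thinning, 33 cells held Folr2, of which 39.4% held Mrc1 (19.0% of cells without) and 42.4% held Pf4 (14.7%). Mrc1 and Pf4 were linked in the same way, with Pf4 in 42.4% of the 406 cells with Mrc1 and in 12.97% of the others (36.1 and 10.5% after thinning). Of the 34 cells with Cbr2, 29 held Mrc1, and after thinning 9 of 15 did. Cbr2 was in 7.14% of cells with Mrc1 and in 0.612% of the others (4.11 and 0.668% after thinning). The shares of pairs pool the 4 tumors, which gave 43, 38, 2 and 5 of the cells with Folr2, so differences between tumors enter them. Cells are not replicates, and these shares are a description.

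**Figure D2:**
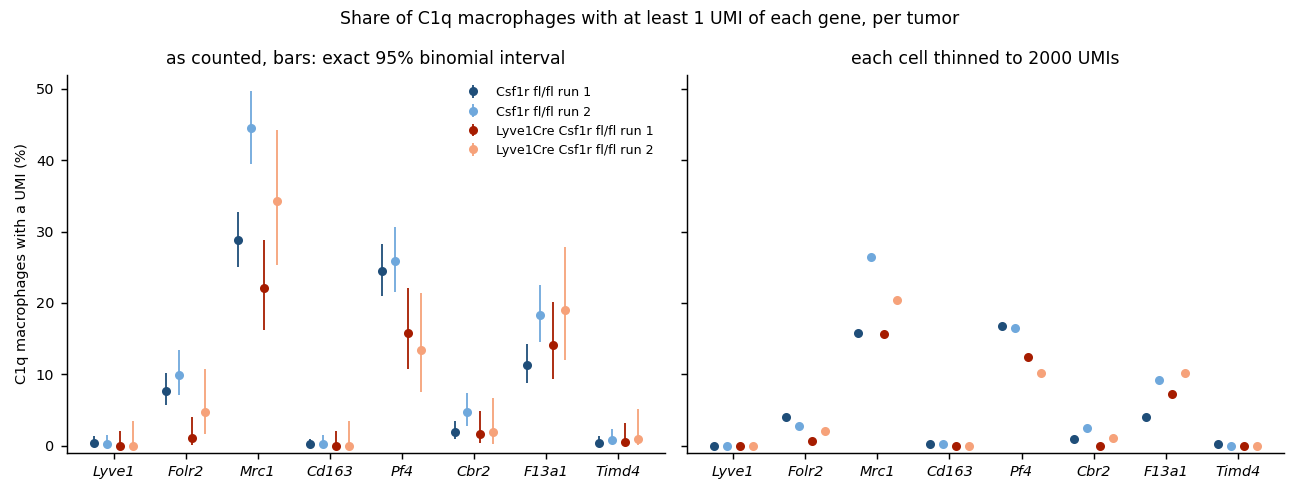
Share of C1q macrophages with at least 1 UMI of each gene (percent) in each tumor, with 95% exact binomial intervals. Folr2 and Pf4 shares were higher in both Csf1r fl/fl tumors (7.69 and 9.95%, and 24.5 and 25.9%) than in the Lyve1Cre Csf1r fl/fl tumors (1.13 and 4.76%, and 15.8 and 13.3%), as for 35.3% of all genes tested.

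**Figure D3:**
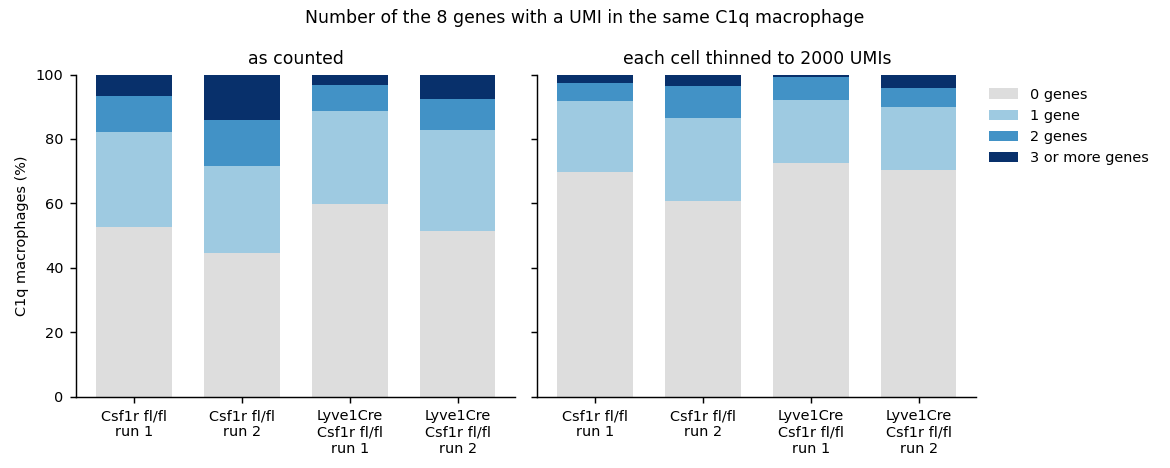
Number of the 8 genes with a UMI in each C1q macrophage, as the percent of cells of each tumor. Cells with none were 52.6 and 44.5% for Csf1r fl/fl and 59.9 and 51.4% for Lyve1Cre Csf1r fl/fl tumors.

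The likeness of the 8 genes across cell types was measured as Pearson's r of mean log2(CPM + 1) over 12 types, which share libraries and depth, so r is a description. Pf4 and Folr2 were closest (r = 0.96), followed by Mrc1 with Pf4 (0.89), Mrc1 with F13a1 (0.86), Folr2 with Mrc1 (0.85), Folr2 with Cbr2 (0.75) and Pf4 with F13a1 (0.75). Lyve1, Cd163 and Timd4 were unlike all the others (r at most 0.03). Among 12061 genes, those most like Folr2 were Stab1 (0.96), the scavenger receptor stabilin-1, Dppa3 (0.96) and Pf4. The genes most like Pf4 were Mmp13 (0.97), a collagenase that was also 1 of the genes of the Arg1 gate, Stab1 (0.97) and Folr2. Mrc1 was most like Lpl (0.99), which encodes lipoprotein lipase, Creg2 (0.98) and Lrp12 (0.98). Cbr2 was most like Ccl8 (0.88), a chemokine, Fcrls (0.87) and Slc13a3 (0.84). The pattern of F13a1 was closest to Ms4a8a (0.97), Tfec (0.97) and Thbd (0.96), the last encoding thrombomodulin.

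Outside the macrophages, Cd163 followed Siglech (0.98), a receptor of plasmacytoid dendritic cells that was part of their gate, 1810065E05Rik (0.98) and Atp2a1 (0.98). Timd4 followed Adam23 (0.95), Tspan33 (0.95) and Nectin1 (0.94). Lyve1 followed the collagen gene Col6a3 (0.996), Twist2 (0.996) and Rhobtb3 (0.99).

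**Figure D4:**
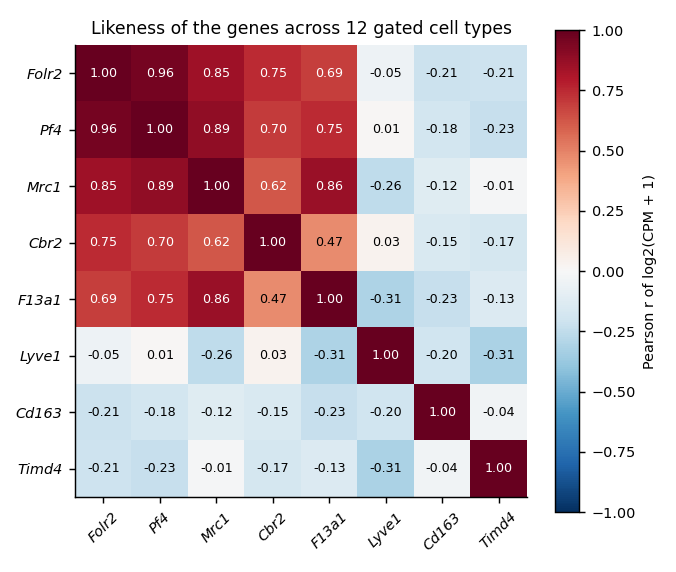
Pearson's r between each 2 of the 8 genes over 12 cell types, from mean log2(CPM + 1). Folr2, Pf4, Mrc1, Cbr2 and F13a1 formed 1 block (Folr2 with Pf4, 0.96), and Lyve1, Cd163 and Timd4 stood outside it.

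The 2 genotypes were then compared, gene by gene, with UMIs summed per tumor and edgeR's quasi-likelihood test over all genes with enough counts. In C1q macrophages 5 of the 8 genes passed the filter on low counts and none of these was called at an adjusted p under 0.05, as was true of all 8733 genes tested (0% called, 282 with an unadjusted p under 0.05, and 2 called by DESeq2). A fold change is given as log2 of Lyve1Cre Csf1r fl/fl over Csf1r fl/fl. Folr2 stood furthest from 0, at -2.06 ± 0.50 (SE, adjusted p = 0.9997, and 0.28 with the run as a block). Folr2 passed the filter mainly through the Csf1r fl/fl tumors, and the Lyve1Cre Csf1r fl/fl tumors held only 2 and 6 of its UMIs. Its fold change was -2.21 without the run 1 Csf1r fl/fl tumor and -1.89 without that of run 2. It was -1.36 without the run 1 Lyve1Cre Csf1r fl/fl tumor and -3.15 without that of run 2. Such fits leave 1 tumor in a group, which is assumed to vary like the other group. Cbr2 was at -0.61 ± 0.67, Mrc1 at -0.58 ± 0.44 and Pf4 at -0.12 ± 0.23. Mrc1 was called without the run 1 Csf1r fl/fl tumor (-1.17, adjusted p = 0.0291), and its sign turned without that of run 2 (0.40, adjusted p = 0.997). F13a1 was at 0.48 ± 0.38. The median of the 5 genes was -0.58, and that of all genes tested was -0.01. Lyve1, Cd163 and Timd4 did not pass the filter. With no filter they were not called either (adjusted p = 0.959 for each).

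Within runs, Folr2 in C1q macrophages was 0.344 times as high in the Lyve1Cre Csf1r fl/fl as in the run 2 Csf1r fl/fl tumor, and only 2 UMIs were counted in the run 1 Lyve1Cre Csf1r fl/fl tumor. Mrc1 stood at 0.887 and 0.589 times in run 1 and run 2, and Pf4 at 0.807 and 1.03 times. F13a1 was higher in the Lyve1Cre Csf1r fl/fl tumor of both runs, at 1.18 and 1.51 times. T-cell markers in the C1q macrophages, which summed to between 0.262 and 1.53 UMIs per 10000 against 41.5 to 46.8 in T cells, were highest in the run 2 Lyve1Cre Csf1r fl/fl tumor and lowest in that of run 1, and their part in these values was not tested.

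Over all monocytes and macrophages, the same 5 genes passed the filter and none was called, as was true of all 11041 genes tested (0% called, 275 with an unadjusted p under 0.05, and 4 called by DESeq2). In such a sum, and in the sum over all kept cells, fewer cells of a type and less RNA per cell cannot be told apart. Folr2 was read at 0.0811, 0.0827, 0.0059 and 0.0204 UMIs per 10000, a log2 fold change of -2.65 ± 0.44 (SE, adjusted p = 0.989). With the run as a block its adjusted p was 0.0821. Leaving out 1 tumor, its fold change ran from -3.66 to -2.07. Pf4 was read at 1.69, 1.25, 0.918 and 0.808 UMIs per 10000, both Csf1r fl/fl tumors above both others (as for 13.6% of all genes tested), at -0.75 ± 0.25 (adjusted p = 0.99995, and 0.0522 with the block). Mrc1 (0.581, 1.35, 0.454 and 0.703) overlapped between genotypes at -0.71 ± 0.34. It was called without the run 1 Csf1r fl/fl tumor (-1.15, adjusted p = 0.000351) and stood at -0.0770 without that of run 2. Cbr2 was at -0.83 ± 0.49, and at -1.37 without the cells marked by Scrublet. F13a1 (1.04, 1.82, 1.27 and 2.72) was at 0.49 ± 0.33, higher in the Lyve1Cre Csf1r fl/fl tumor of each run. The median of the 5 genes was -0.75, against 0.01 for all genes.

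All 8 genes could be tested over all kept cells, and none of them, nor any of the 14731 genes, was called by edgeR (0% called, 491 with an unadjusted p under 0.05, and 28 called by DESeq2). Folr2 was read at 0.0370, 0.0332, 0.0042 and 0.0051 UMIs per 10000, which is 0.113 and 0.152 times as much in the Lyve1Cre Csf1r fl/fl as in the run 1 Csf1r fl/fl tumor and run 2, at a log2 fold change of -2.97 ± 0.33 (SE, adjusted p = 0.232). Pf4 was read at 0.937, 0.494, 0.231 and 0.224, at -1.71 ± 0.35 (adjusted p = 0.793), and Mrc1 at 0.297, 0.551, 0.148 and 0.190, at -1.36 ± 0.26 (adjusted p = 0.752). Both Csf1r fl/fl tumors were above both others for 5 of the 8 genes (these 3, Cbr2 and Cd163), as for 8.45% of all genes tested, and below both others for 1, Lyve1, as for 10.6% of all genes tested. DESeq2 called Folr2, Pf4 and Mrc1, with adjusted p values of 2.31e-06, 0.000452 and 0.00298. Without the run 1 Csf1r fl/fl tumor Pf4 stood at -1.08, and without that of run 2 at -2.15. Cbr2 was at -1.60 ± 0.49, Cd163 at -0.92 ± 0.40 and F13a1 at -0.23 ± 0.27. Timd4 was at 0.35 ± 0.38. Lyve1 was at 1.02 ± 0.40, and at 0.50 without the cells marked by Scrublet. The median of the 8 genes was -1.14, against 0.00 for all genes.

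The share of C1q macrophages moved with these sums, at 5.67% of kept cells in Csf1r fl/fl and 2.33% in Lyve1Cre Csf1r fl/fl tumors. So did the mixed cells of run 1, which were 22.5% of the cells of the Csf1r fl/fl tumor and 14.7% of those of the Lyve1Cre Csf1r fl/fl tumor. Mixed cells held 45.7% of all Pf4 UMIs, 40.4% of those of Folr2 and 36.0% of those of Mrc1. In run 2 the order of the mixed cells was the opposite, at 14.0 and 17.8%. Their part in the results was not tested.

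**Figure D5:**
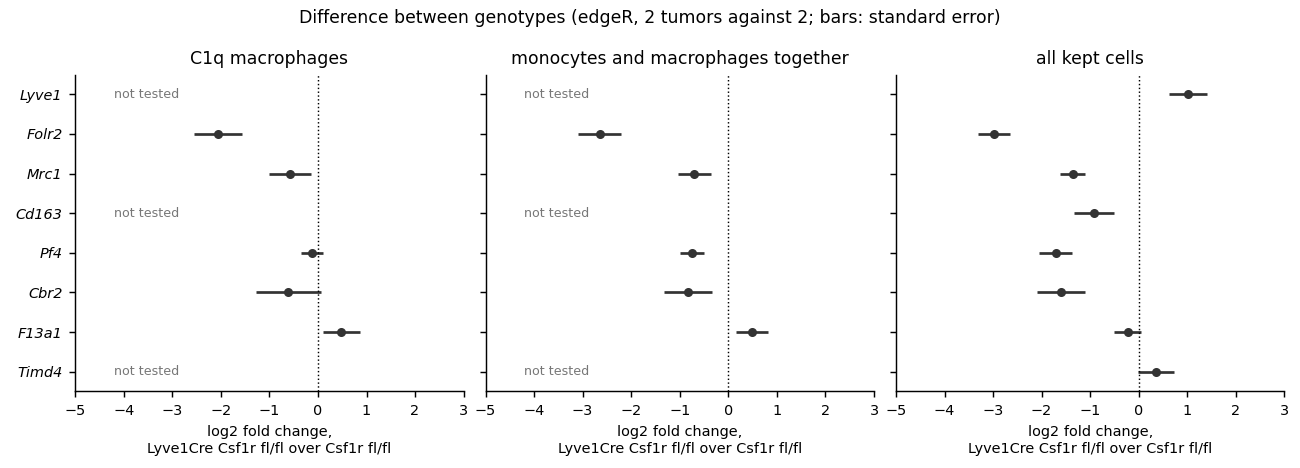
Log2 fold change (Lyve1Cre Csf1r fl/fl over Csf1r fl/fl) of the genes tested in each set of cells, with bars of 1 SE from edgeR over 4 tumors. Folr2 was lowest in C1q macrophages (-2.06), in monocytes and macrophages together (-2.65) and in all kept cells (-2.97), and no point passed the adjusted threshold.

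F13a1 and Timd4 were also compared in the cells where they were most read. In Ly6c2 monocytes 3 of the 8 genes were tested and none was called, as for all 9998 genes (0% called, 123 with an unadjusted p under 0.05, and none by DESeq2). F13a1 was at 0.20 ± 0.32, Mrc1 at 0.14 ± 0.29 and Pf4 at -0.87 ± 0.76 (SE). Pf4 there passed the threshold only without the run 2 Csf1r fl/fl tumor (-1.71, adjusted p = 1.98e-05), its sign turned without that of run 1 (1.22), and it stood at -0.13 without the cells marked by Scrublet. In mature dendritic cells 4 genes were tested and none was called among 8644 genes (0% called, 147 with an unadjusted p under 0.05, and 1 by DESeq2). Timd4 was at 0.20 ± 0.26 there, Mrc1 at -1.26 ± 0.43 and F13a1 at -0.73 ± 0.49. Mrc1, Pf4 and F13a1 had a UMI in 1.91, 1.27 and 2.31% of these cells, against 1.02, 1.43 and 1.70% of T cells. In T cells their means were also lower in Lyve1Cre Csf1r fl/fl than in Csf1r fl/fl tumors. Mrc1 was at 0.0182 against 0.0472 UMIs per 10000, Pf4 at 0.0228 against 0.0943 and F13a1 at 0.0612 against 0.0881. Whether the differences belong to the dendritic cells was not tested. Pf4 passed the filter on low counts in mature dendritic cells mainly through the Csf1r fl/fl tumors. It no longer passed the filter, like Mrc1 and F13a1, without the cells marked by Scrublet. It was at -3.85 ± 0.80 (adjusted p = 0.9998), and at -3.97 with an adjusted p of 1.37e-09 with the run as a block. Its counts were 118, 33, 3 and 7 UMIs in 8, 7, 3 and 4 cells, with 85 of the 118 in 1 cell, and without the run 1 Csf1r fl/fl tumor the fold change was -2.40 (adjusted p = 0.0614). Without any of the other 3 tumors it was called (-4.95 to -2.96, adjusted p between 2.95e-25 and 0.0108).

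A wider list of genes used for resident macrophages, such as scavenger receptors, transcription factors and phosphatidylserine-binding ligands, was read beside the 8. Of 29 genes in the table, 17 were tested in C1q macrophages, none was called, 14 were below 0 and the median was -0.33. Without the run 2 Csf1r fl/fl tumor 4 of 14 were below 0 and the median was 0.0879. Over monocytes and macrophages 21 were tested and 15 were below 0 (median -0.33), and over all kept cells 24 were tested and 23 were below 0 (median -0.58, against 0.00 for all genes), none called by edgeR over the 4 tumors in either. DESeq2 called 2 of the 24 lower in all kept cells, Dab2 among them (-0.98, adjusted p = 0.0318), and with no filter edgeR called 10 of 29 lower (0.19% and 0.787% of all genes were called in those fits). Maf, the transcription factor, had the most UMIs in C1q macrophages of the Csf1r fl/fl tumors, at 6.16, 8.40, 5.60 and 8.18 UMIs per 10000. Dab2, an endocytic adaptor, was at 2.60, 5.27, 2.43 and 4.49, higher in run 2 in both genotypes as Mrc1 was. Clec4n, the lectin Dectin-2, was at 4.38, 3.39, 6.14 and 5.90, with a log2 fold change of 0.63 ± 0.25 (SE, adjusted p = 0.9997 from edgeR). Pltp, the phospholipid transfer protein, was at 1.46, 2.04, 1.34 and 1.30. Vsig4 and Cd209b had no UMI in C1q macrophages.

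Hyaluronan is the ligand of Lyve1, so genes that bind, make or degrade it were read as well. Of 21 in the table, 10 were tested in C1q macrophages, none was called, 7 were below 0 and the median was -0.12. Without the run 2 Csf1r fl/fl tumor 1 of 7 was below 0 and the median was 0.32. Over monocytes and macrophages 8 of 11 (median -0.19) and over all kept cells 9 of 13 (median -0.18) were below 0. None was called there by edgeR with the filter and the 4 tumors. Without the run 2 Csf1r fl/fl tumor 6 of 13 were below 0 over all kept cells (median 0.00293). With no filter 1 of 20 was called lower in all kept cells, where 0.787% of all genes were called. Cd44, the main hyaluronan receptor of leukocytes, was at 1.73, 2.42, 1.75 and 2.10 UMIs per 10000 in C1q macrophages. The lysosomal hexosaminidase subunit Hexa (1.97, 1.92, 1.78 and 1.72) and the glucuronidase Gusb (0.891, 1.04, 0.966 and 0.919) differed little between tumors. Vcan, a proteoglycan that binds hyaluronan, was at 0.652, 1.79, 0.943 and 1.68, higher in run 2 in both genotypes. With the run as a block, Dab2 in mature dendritic cells was the only gene of either list that was called in any of the 5 comparisons (-1.06, adjusted p = 0.0147). In that fit 0.359% of all genes were called.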

How the data were processed

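EO771 tumors of 2 Csf1r fl/fl and 2 Lyve1Cre Csf1r fl/fl mice were pooled by run in 2 Chromium 3′ v2 libraries. Per the labels and the study's methods, reads were mapped to mm10 with Cell Ranger 6.0.1 and processed in Seurat. The raw table deposited by the authors holds UMI counts of 32285 genes, with no normalization. The authors also deposited corrected counts from SCTransform, used here as a score that only names the cells they kept (singlets with under 5% mitochondrial reads, outside clusters particular to the Lyve1Cre Csf1r fl/fl tumor of run 2). The tumor of a cell was taken from its higher hashtag in the run. By raw hashtag counts 75 kept cells would change tumor, and 725 had a ratio under 3.

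Types were gated by summed lineage markers in each cell. The 8 genes and the gene lists were chosen with earlier results of these data known, and the comparisons in Ly6c2 monocytes and mature dendritic cells were added after levels were seen. Named beside the 8 genes were the 5 genes of each list with most UMIs in C1q macrophages of Csf1r fl/fl tumors, list genes that were called, and the 3 genes most like each of the 8 (of those with 200 or more UMIs). Some genes that this rule names are not reported here. Vsig4, Cd209b and Clec4n's fold change were singled out after values were seen. For thinning, 2000 UMIs were drawn from each cell that had them (1117 of 1223 C1q macrophages).

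Counts were summed per tumor and tested with edgeR 4.0.16 (filterByExpr, TMM, quasi-likelihood, Benjamini-Hochberg over all genes, R 4.3.3). DESeq2 1.42.0, no filter, the run as a block, stricter hashtags, removal of doublets marked by Scrublet (scanpy 1.11.5) and leaving out each tumor were alternatives. On simulated counts, the test in C1q macrophages (8518 genes) recovered 56.1% of genes changed by 1 and 90.5% of those changed by 2 on the log2 scale, with 8 unchanged genes called. The simulated counts had no run effect and the same spread for all genes, estimated with the run in the model. The tumors did differ by run, so these percentages do not give the power of the test in these data. The run pairs tumors in 1 library, and deviations of tumors of the same run correlated at r = 0.23 in C1q macrophages, 0.34 in monocytes and macrophages and 0.24 in all kept cells. Promoters were read from RefSeq on GRCm38.p6 and gene positions from GENCODE on GRCm38. Figures were drawn with matplotlib 3.10.9.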

Additional observations from a re-analysis of the deposited data

Results flagged for a closer look

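The 24932 barcodes that the study did not keep held 171494810 UMIs and were used in no comparison. All 8 genes had signal there, above the limit that a count of 0 allows. The counts were 59 UMIs for Lyve1 (in 28 barcodes), 507 for Folr2, 7472 for Mrc1, 91 for Cd163, 11011 for Pf4, 287 for Cbr2, 8704 for F13a1 and 239 for Timd4. By the same gates 587 of these barcodes were C1q macrophages, with Folr2 at 0.196, Mrc1 at 2.24, Pf4 at 3.20 and Cbr2 at 0.0792 UMIs per 10000. Lyve1 had 6 UMIs in them, in 1 barcode. The 92 barcodes gated as tumor and stromal cells held Lyve1 at 0.0578 UMIs per 10000, and the 168 gated as plasmacytoid dendritic cells held Cd163 at 0.0593. No genotype was compared among barcodes that were not kept.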

How the results depend on the processing

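Of 246 fold changes of the 8 genes that were recomputed, 205 kept their direction and their side of the threshold, 29 passed it and 12 took the opposite sign, each of the last when 1 tumor was left out. Main counts of called genes were 0 in the 5 comparisons. With the run as a replicate block they were 4 in C1q macrophages, 17 in monocytes and macrophages, 0 in all kept cells, 7 in Ly6c2 monocytes and 31 in mature dendritic cells, and Pf4 in mature dendritic cells was the only 1 of the 8 genes whose call the block changed. DESeq2 called 2, 4, 28, 0 and 1 genes in that order. With no filter beyond 1 UMI the counts were 25, 0, 175, 8 and 22, among them Folr2 in C1q macrophages (adjusted p = 0.0121) Folr2, Mrc1, Pf4 and Cbr2 in all kept cells and Pf4 in mature dendritic cells (adjusted p = 1.18e-16). A hashtag ratio of 3 or more gave 1 call in C1q macrophages and 1 in mature dendritic cells, and removal of Scrublet doublets gave 1 in C1q macrophages. Leaving out 1 tumor gave 11 to 32 calls in C1q macrophages, 21 to 112 in monocytes and macrophages, 0 to 133 in all kept cells, 0 to 20 in Ly6c2 monocytes and 9 to 28 in mature dendritic cells, with the lone tumor assumed to vary like the other group. The causes were not tested.

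Leaving out 1 tumor, the log2 fold change ran from -1.17 to 0.40 for Mrc1 and from -0.23 to 0.99 for F13a1 in C1q macrophages, from -3.15 to -1.36 for Folr2 and from -1.16 to -0.17 for Cbr2 (which did not pass the filter without the run 2 Csf1r fl/fl tumor), and Pf4 there reached 0.000164. F13a1 ran from -0.0435 to 0.88 in monocytes and macrophages, where Folr2 ran from -3.66 to -2.07, Mrc1 from -1.15 to -0.0770, Pf4 from -1.02 to -0.43 and Cbr2 from -1.25 to -0.26, and in all kept cells F13a1 ran from -0.57 to 0.0591 and Timd4 from -0.0514 to 0.86, with Mrc1 from -1.68 to -0.94, Pf4 from -2.15 to -1.08, Cbr2 from -2.05 to -0.96 and Lyve1 from 0.70 to 1.47. In Ly6c2 monocytes Mrc1 ran from -0.21 to 0.61, Pf4 from -1.71 to 1.22 and F13a1 from -0.32 to 0.57. Among cells with 2000 UMIs or more, C1q macrophages were 6.38% in the Csf1r fl/fl and 2.58% in the Lyve1Cre Csf1r fl/fl tumors. The gates were not redone on thinned cells. After thinning to 2000 UMIs, 2.86% of C1q macrophages held 3 or more of the 8 genes, against 8.59% as counted. In mature dendritic cells Pf4 ran from -4.95 to -2.40, Mrc1 from -1.47 to -0.99, F13a1 from -1.95 to -0.26 and Timd4 from 0.0208 to 0.39. Leaving out 1 tumor, the median of the wider resident macrophage list ran from -0.58 to 0.0879 in C1q macrophages. It ran from -0.53 to -0.19 in monocytes and macrophages and from -0.78 to -0.63 in all kept cells. The median of the hyaluronan list ran from -0.33 to 0.32, from -0.24 to -0.14 and from -0.27 to 0.00293 in the same order. In macrophages Lyve1, Cd163 and Timd4 had few UMIs and did not pass the filter over the 4 tumors, and none of them was called with no filter.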
